A study of Mus musculus with 9 samples.

Results

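Immunoglobulin V gene segments are the coding units for the variable part of an antibody chain. They were taken as all genes whose symbol begins with Ighv (heavy chain), Igkv (kappa light chain) or Iglv (lambda light chain) followed by a number. This gave 348 gene identifiers with 346 symbols, of 50686 genes in the count tables, namely 185 heavy-chain, 160 kappa and 3 lambda segments. Their reads were compared in 9 RNA-seq libraries of BCR/ABLp185+ cell lines, which are mouse bone marrow cells transformed with a retrovirus that encodes the BCR/ABL fusion oncogene. One line was wild type (wt), 1 lacked Stat5a (Stat5a-/-) and 1 lacked Stat5b (Stat5b-/-), the knockouts coming from deficient mice, and C57BL/6N was given as the background strain of all lines. There were 3 technical replicates of each line, so that every test compares libraries of these lines and not independent lines of a genotype. In the free-text descriptions the knockout samples are called wt, whereas their titles, source names and genotypes name the knockout, and the latter were followed.

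An antibody gene is built in a developing B cell by joining a V segment to a J segment, with a D segment in between at the heavy locus. The RAG recombinase cuts at these segments, the heavy locus is normally rearranged before the light-chain loci, and the cells of 1 clone share their rearranged V segments. Unrearranged V segments are also transcribed in B-cell precursors, and STAT5, which acts downstream of the interleukin-7 receptor, is known to bind within immunoglobulin loci at this stage. Gene counts hold no V(D)J junctions, so a read on a V segment cannot be assigned here to a rearranged or to an unrearranged copy.

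The germline sequences of the segments that led each locus are shown first, because the usage of each line turns on them. They are the last 300 bases of the coding sequence spliced from the leader exon and the V exon, taken from the GENCODE M21 transcripts on GRCm38, and leave out the start of the leader. Capitals mark the stretch from the last in-frame TGT, the conserved cysteine codon just before the CDR3, to the end that is joined to D or J. The first segment led the heavy locus in wt, the second led it in Stat5a-/-, the next 3 took most heavy-chain V reads in Stat5b-/-, and the last led the kappa locus in all lines.
Ighv5-2: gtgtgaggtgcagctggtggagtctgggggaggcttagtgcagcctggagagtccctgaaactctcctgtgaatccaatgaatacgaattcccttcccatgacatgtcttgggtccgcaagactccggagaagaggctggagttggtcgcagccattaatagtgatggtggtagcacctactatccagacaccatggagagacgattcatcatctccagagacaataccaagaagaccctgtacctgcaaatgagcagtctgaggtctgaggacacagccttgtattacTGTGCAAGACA
Ighv1-85: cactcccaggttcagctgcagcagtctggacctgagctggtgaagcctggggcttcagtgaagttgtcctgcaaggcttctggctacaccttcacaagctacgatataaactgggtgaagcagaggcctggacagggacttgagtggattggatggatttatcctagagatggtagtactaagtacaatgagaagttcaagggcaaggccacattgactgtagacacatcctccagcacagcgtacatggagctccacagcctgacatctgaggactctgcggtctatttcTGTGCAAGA
Ighv2-2: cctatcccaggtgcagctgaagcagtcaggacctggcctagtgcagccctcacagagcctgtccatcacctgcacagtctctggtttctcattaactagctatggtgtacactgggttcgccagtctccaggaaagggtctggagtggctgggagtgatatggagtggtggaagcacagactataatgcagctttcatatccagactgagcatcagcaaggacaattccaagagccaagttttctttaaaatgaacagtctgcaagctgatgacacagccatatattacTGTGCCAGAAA
Ighv2-3: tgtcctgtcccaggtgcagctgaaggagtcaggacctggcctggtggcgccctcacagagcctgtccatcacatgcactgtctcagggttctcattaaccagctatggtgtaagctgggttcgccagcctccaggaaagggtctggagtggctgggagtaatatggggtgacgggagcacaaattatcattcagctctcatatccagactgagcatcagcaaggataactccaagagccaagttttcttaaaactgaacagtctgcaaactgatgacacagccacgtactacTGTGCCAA
Ighv14-2: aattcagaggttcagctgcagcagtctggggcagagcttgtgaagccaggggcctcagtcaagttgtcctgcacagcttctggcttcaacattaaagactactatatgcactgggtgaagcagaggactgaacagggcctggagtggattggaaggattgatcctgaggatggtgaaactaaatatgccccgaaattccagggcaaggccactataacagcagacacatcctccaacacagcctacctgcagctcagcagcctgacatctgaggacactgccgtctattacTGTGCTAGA
Igkv14-111: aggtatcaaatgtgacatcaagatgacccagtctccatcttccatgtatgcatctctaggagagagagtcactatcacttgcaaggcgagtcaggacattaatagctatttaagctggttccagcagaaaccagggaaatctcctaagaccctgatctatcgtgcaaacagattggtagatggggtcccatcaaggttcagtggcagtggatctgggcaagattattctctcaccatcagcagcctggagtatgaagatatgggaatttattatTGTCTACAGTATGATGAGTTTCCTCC

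Ighv5-2 lies at chr12:113578504-113578990 on the minus strand, and was the third V segment counted from the J segments, 149 kb from Ighj1. Ighv2-2 (chr12:113588267-113588702, minus strand) was the fourth and Ighv2-3 (chr12:113611187-113611617, minus strand) the eighth, at 158 and 181 kb. Ighv14-2 lies at chr12:113994469-113994898 and Ighv1-85 at chr12:116000028-116000461, both on the minus strand. Ighv1-85 was number 184 of the 185, 2570 kb from Ighj1. Igkv14-111 lies at chr6:68256389-68256869 on the plus strand. Ighv2-2 and Ighv2-3, both of the Ighv2 family, were 89.9% identical over the aligned bases of their whole coding sequences, with 312 matches and 35 mismatches. Of the other pairs of printed heavy-chain sequences, Ighv1-85 and Ighv14-2 were the most alike, at 78.9%.

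Few reads fell on V segments. The libraries held between 11948136 and 19016396 counted reads, of which 3579 over all 9 lay on V segments. No read was counted in any library on 164 of the 348 segments, 125 had 1 to 9 reads in all and 59 had 10 or more. Of the 348, 213 are annotated as V genes, 130 as V pseudogenes and 5 otherwise. In a single library 3 reads, the limit that a count of 0 allows, corresponded to 0.158 to 0.251 CPM, which are counts scaled by the library total. Reads were counted without molecular identifiers and without strand, so that intervals cover counting error only and antisense reads are included. Reads that map to several places were dropped by default. The share of a segment's 50-base windows found in no other transcript therefore sets how much of it could be counted. Its median was 82.8% over all V segments. It was 100.0% for Ighv5-2 and Igkv14-111, 82.2% for Ighv2-3, 64.6% for Ighv1-85, 62.9% for Ighv14-2 and 44.6% for Ighv2-2. The knocked-out genes were checked first: Stat5a had 43.1 normalized CPM (scaled with TMM factors) in wt, 12.4 in Stat5a-/- and 83.6 in Stat5b-/-, and Stat5b had 105, 142 and 63.4. Reads on each knocked-out gene thus remained in its knockout line.

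The heavy-chain V segments with the most reads differed from line to line, and no heavy-chain segment reached 10 reads over 3 libraries in all 3 lines. Of 21 segments that reached this number in any line, 6 did so in wt and in no other line, 7 in Stat5a-/- and 2 in Stat5b-/-. Of these, 0 of the 6, 3 of the 7 and 1 of the 2 had 0 reads in both other lines. The cut was in raw reads, and wt had the largest total (50916108 reads, against 39973364 in Stat5a-/- and 41601413 in Stat5b-/-). The summed reads on heavy-chain V segments were 13.1 ± 1.94 CPM in the wt line, 10.6 ± 1.35 in the Stat5a-/- line and 15.5 ± 1.25 in the Stat5b-/- line, each a mean ± SD of n = 3 libraries. In reads, these sums were 233, 245 and 188 in the wt libraries, 160, 156 and 110 in the Stat5a-/- libraries and 206, 235 and 202 in the Stat5b-/- libraries.

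In wt, Ighv5-2 held 103, 107 and 82 reads in the 3 libraries, against 0, 0 and 0 in Stat5a-/- and 0, 1 and 0 in Stat5b-/-. All wt libraries were high and the groups did not overlap. Its share of the heavy-chain V reads was 44.2% (95% Wilson interval 38 to 50.6%), 43.7% (37.6 to 49.9%) and 43.6% (36.7 to 50.8%) in the wt libraries, which gives 43.8 ± 0.325%. Per counted read its level was at least 76.4-fold lower in Stat5a-/- than in wt, with the floor set at 3 reads over the 3 libraries (edgeR quasi-likelihood test, adjusted p = 5.74e-07 by the Benjamini-Hochberg method over 13852 genes). Against Stat5b-/-, with its single read, the ratio of wt to Stat5b-/- was 239, with a 95% counting interval of 42.5 to 9455 (adjusted p = 4.58e-07 by edgeR).

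Ighv1-58 came next in wt with 15, 27 and 13 reads, or 8.12 ± 2.52% of the heavy-chain V reads. It had 0, 0 and 3 reads in Stat5a-/- and 1, 3 and 6 in Stat5b-/-, so that the wt libraries were again the highest and did not overlap either knockout line. Relative to wt, Stat5a-/- showed a log2 fold change of -3.56 (standard error, SE, 0.77, adjusted p = 0.00267 by edgeR) and Stat5b-/- one of -2.09 (SE 0.6, adjusted p = 0.0118). All 3 Stat5a-/- reads lay in replicate 3, and without it the former was -7.0, against a line at 0 reads, and without replicate 1 of Stat5a-/- it was -2.94. Without replicate 1 of Stat5b-/-, the latter was -1.67 and did not pass the limits, and without replicate 3 it was -2.84. Ighv1-74 took 20, 5 and 6 reads in wt, 1, 3 and 3 in Stat5a-/- and 6, 3 and 9 in Stat5b-/-. Its mean wt share of 4.61 ± 3.49% thus rested largely on 1 of the 3 libraries.

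In Stat5a-/-, heavy-chain V reads were spread more evenly, and 4 segments of the Ighv1 and Ighv8 families were higher there than in either other line. The number of segments with any read was 60 in wt, 58 in Stat5a-/- and 54 in Stat5b-/-. Ighv1-85 held 30, 29 and 15 reads in Stat5a-/- and 0 in each of the other 6 libraries. This was 18.8% (13.5 to 25.5%), 18.6% (13.3 to 25.4%) and 13.6% (8.44 to 21.3%) of the heavy-chain V reads, or 17.0 ± 2.91%. Per counted read, the level was at least 31.4-fold higher than in wt (adjusted p = 4.23e-05 by edgeR) and at least 25.7-fold higher than in Stat5b-/- (adjusted p = 0.000104).

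Ighv1-66 (chr12:115593110-115593591) had 19, 28 and 13 reads in Stat5a-/-, 0, 2 and 0 in wt and 0, 1 and 0 in Stat5b-/-. The ratio of Stat5a-/- to wt was 38.2, with a counting interval of 10.1 to 323 (adjusted p = 4.75e-05 by edgeR). Ighv1-70 (chr12:115691889-115692322), a pseudogene, had 23, 18 and 10 reads in Stat5a-/-, 0, 1 and 1 in wt and 0, 1 and 0 in Stat5b-/-. Here the ratio to wt was 32.5, from 8.54 to 275 (adjusted p = 2.84e-05). For these segments, as for Ighv1-85, the lowest Stat5a-/- library lay above every library of the other lines.

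Ighv8-7 (chr12:115258136-115258432), also a pseudogene, held 11, 10 and 13 reads in Stat5a-/- and none in the other 6 libraries. Its level was at least 14.4-fold higher than in wt (adjusted p = 0.000246 by edgeR) and at least 11.8-fold higher than in Stat5b-/- (adjusted p = 0.000529). Together, pseudogenes took 23.9% of the heavy-chain V reads in Stat5a-/- (102 of 426 reads), 6.01% in wt (40 of 666) and 2.49% in Stat5b-/- (16 of 643). Most of the 102 reads lay on Ighv1-70 (51 reads) and Ighv8-7 (34 reads). Segments with fewer reads were also found in Stat5a-/- and hardly elsewhere. Ighv1-9 had 12, 5 and 3 reads, against 0 in wt and 0, 0 and 1 in Stat5b-/-, and Ighv1-84 had 4, 3 and 3, against 0 in both other lines. Neither passed the filter on low counts.

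In Stat5b-/-, 3 segments together took 73.2 ± 2.47% of the heavy-chain V reads, against 56.6 ± 2.76% for the leading 3 in wt and 42.5 ± 7.09% in Stat5a-/-. Ighv2-2 held 65, 67 and 61 reads in Stat5b-/-, 0, 1 and 1 in wt and 0, 0 and 0 in Stat5a-/-. Its shares were 31.6% (25.6 to 38.2%), 28.5% (23.1 to 34.6%) and 30.2% (24.3 to 36.9%), or 30.1 ± 1.52%. The ratio of Stat5b-/- to wt was 118, with a counting interval of 32.3 to 982 (adjusted p = 2.6e-07 by edgeR), and the level was at least 61.8-fold higher than in Stat5a-/- (adjusted p = 7.61e-07).

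Ighv2-3 held 58, 55 and 50 reads in Stat5b-/- and none in the wt and Stat5a-/- libraries, and made up 25.4 ± 2.45% of the heavy-chain V reads. The level was at least 66.5-fold higher than in wt (adjusted p = 2.13e-06 by edgeR) and at least 52.2-fold higher than in Stat5a-/- (adjusted p = 8.11e-06). It is the relative of Ighv2-2 shown above. How reads were divided between the pair was not tested.

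Ighv14-2 was the third of these segments, with 33, 50 and 32 reads in Stat5b-/-, 3, 8 and 5 in wt and 6, 2 and 1 in Stat5a-/-. Stat5b-/- was high and did not overlap the other lines, while wt and Stat5a-/- overlapped. The log2 fold change was 3.13 against wt (SE 0.37, adjusted p = 1.66e-05 by edgeR) and 3.47 against Stat5a-/- (SE 0.42, adjusted p = 3.86e-05), the latter 4.31 without replicate 1 of Stat5a-/-. In Stat5a-/- against wt it was -0.33 (SE 0.6, adjusted p = 0.708), or -1.2 without replicate 1 of Stat5a-/-, which did not pass either.

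**Figure D1:**
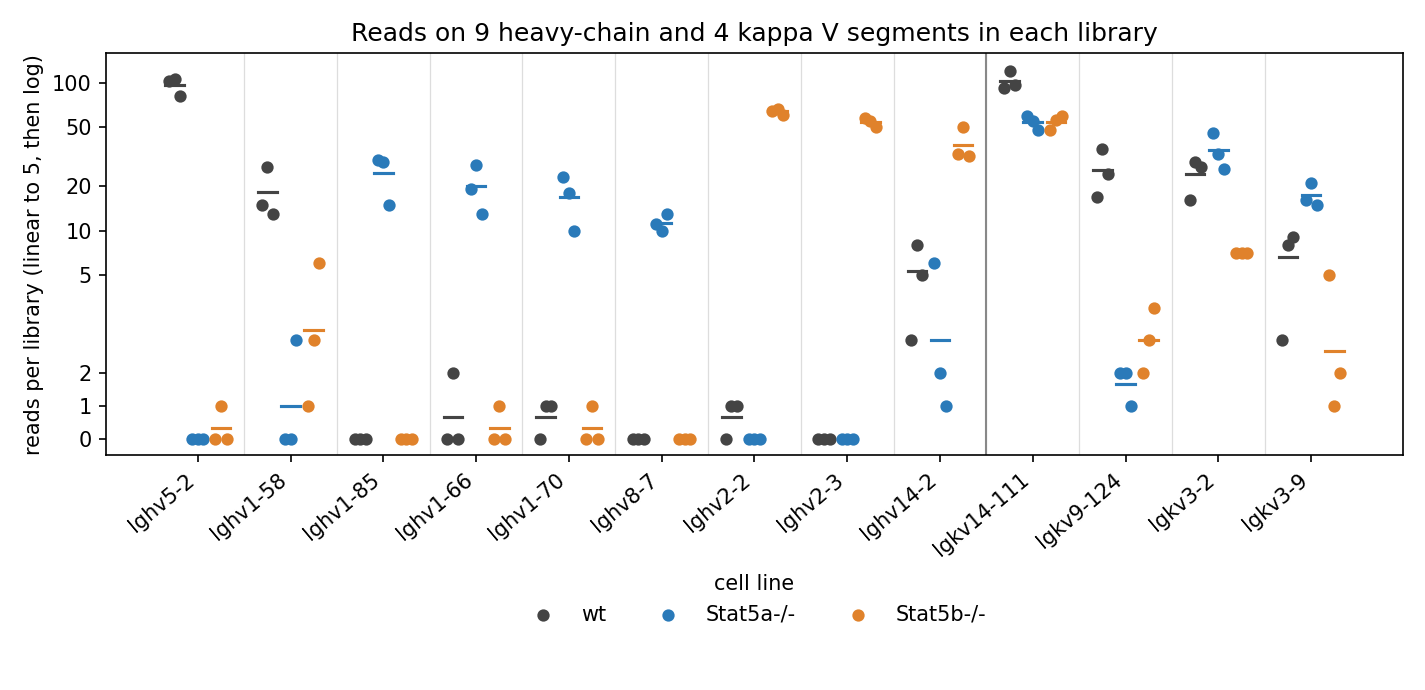
Reads on 9 heavy-chain (left of the grey line) and 4 kappa V segments in each of the 9 libraries, with the vertical axis linear to 5 reads and logarithmic above. Points are libraries and horizontal bars the mean of the 3 libraries of a line. Ighv5-2 is at 82 to 107 reads in wt and at most 1 elsewhere, whereas Igkv14-111 is at 48 or more in every library.

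The evenness of usage was described by the effective number of segments, the number of equally used segments that would give the same chance that 2 reads of a library lie on 1 segment. For the heavy chain it was 4.71, 4.81 and 4.97 in the wt libraries, 12.2, 11.4 and 16.1 in Stat5a-/- and 4.9, 5.53 and 5.58 in Stat5b-/-. Stat5a-/- lay above both other lines in every library. Counting only segments with 10 or more reads in the library, the means were 1.77 in wt, 4.12 in Stat5a-/- and 2.89 in Stat5b-/-, with Stat5a-/- still the highest. Beyond the segments with 10 reads over the 3 libraries, 48 segments in wt, 50 in Stat5a-/- and 47 in Stat5b-/- had 1 to 9 reads, and these held 145, 143 and 121 reads.

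**Figure D2:**
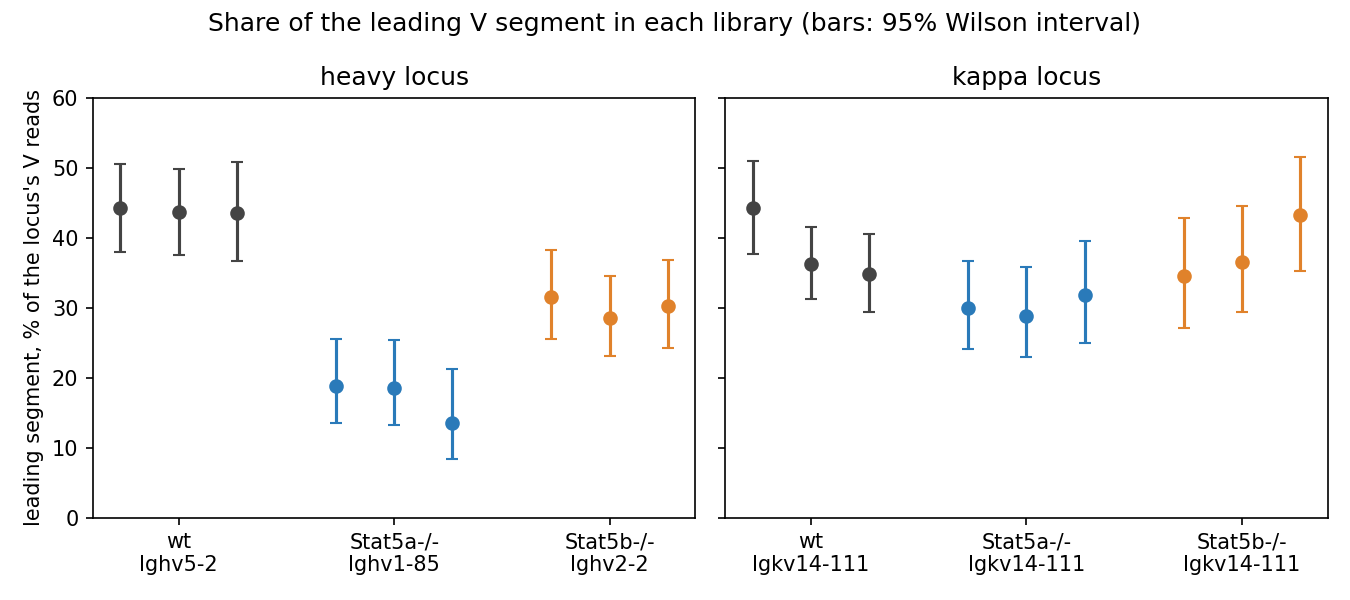
Share of the leading V segment among the V reads of its locus, in percent, for each library. Points are libraries, bars are 95% Wilson intervals, and the leading segment is named under each line. The heavy-chain share is near 44% in wt, 13.6 to 18.8% in Stat5a-/- and 28.5 to 31.6% in Stat5b-/-, while Igkv14-111 leads the kappa locus of all 3 lines.

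Seen by family, Ighv5 took 44.7% of the heavy-chain V reads in wt (298 reads), 0.704% in Stat5a-/- (3 reads) and 0.933% in Stat5b-/- (6 reads). Ighv2 took 56.0% in Stat5b-/- (360 reads), 0.3% in wt (2 reads) and none in Stat5a-/-. In Stat5a-/-, Ighv1, with 93 segments the largest family, took 69.2% and Ighv8 20.4%, against 36.8% and 4.35% in wt and 17.0% and 3.89% in Stat5b-/-. The families Ighv12, Ighv13, Ighv15 and Ighv16 had no read in any library.

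The position of the used segments along the locus also differed. The heavy locus was divided by order from the J segments into 3 zones of 62, 62 and 61 segments. The J-proximal zone, from 143 to 884 kb, held 52.4 ± 0.263% of the heavy-chain V reads in wt, 4.35 ± 2.86% in Stat5a-/- and 77.0 ± 2.68% in Stat5b-/-. In the same order, the J-distal zone, from 1516 to 2580 kb, held 38.9 ± 2.92%, 81.7 ± 4.2% and 19.6 ± 2.42%. The ranges of the 3 lines overlapped in neither zone. With the leading segment of each line left out, the proximal share fell to 15.2% in wt and 67.1% in Stat5b-/-, and was 5.4% in Stat5a-/-. The distal shares were then 69.8% in wt, 28.0% in Stat5b-/- and 77.8% in Stat5a-/-. The proximal share of wt thus rested mainly on Ighv5-2, whereas that of Stat5b-/- also held Ighv2-3 and Ighv14-2.

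**Figure D3:**
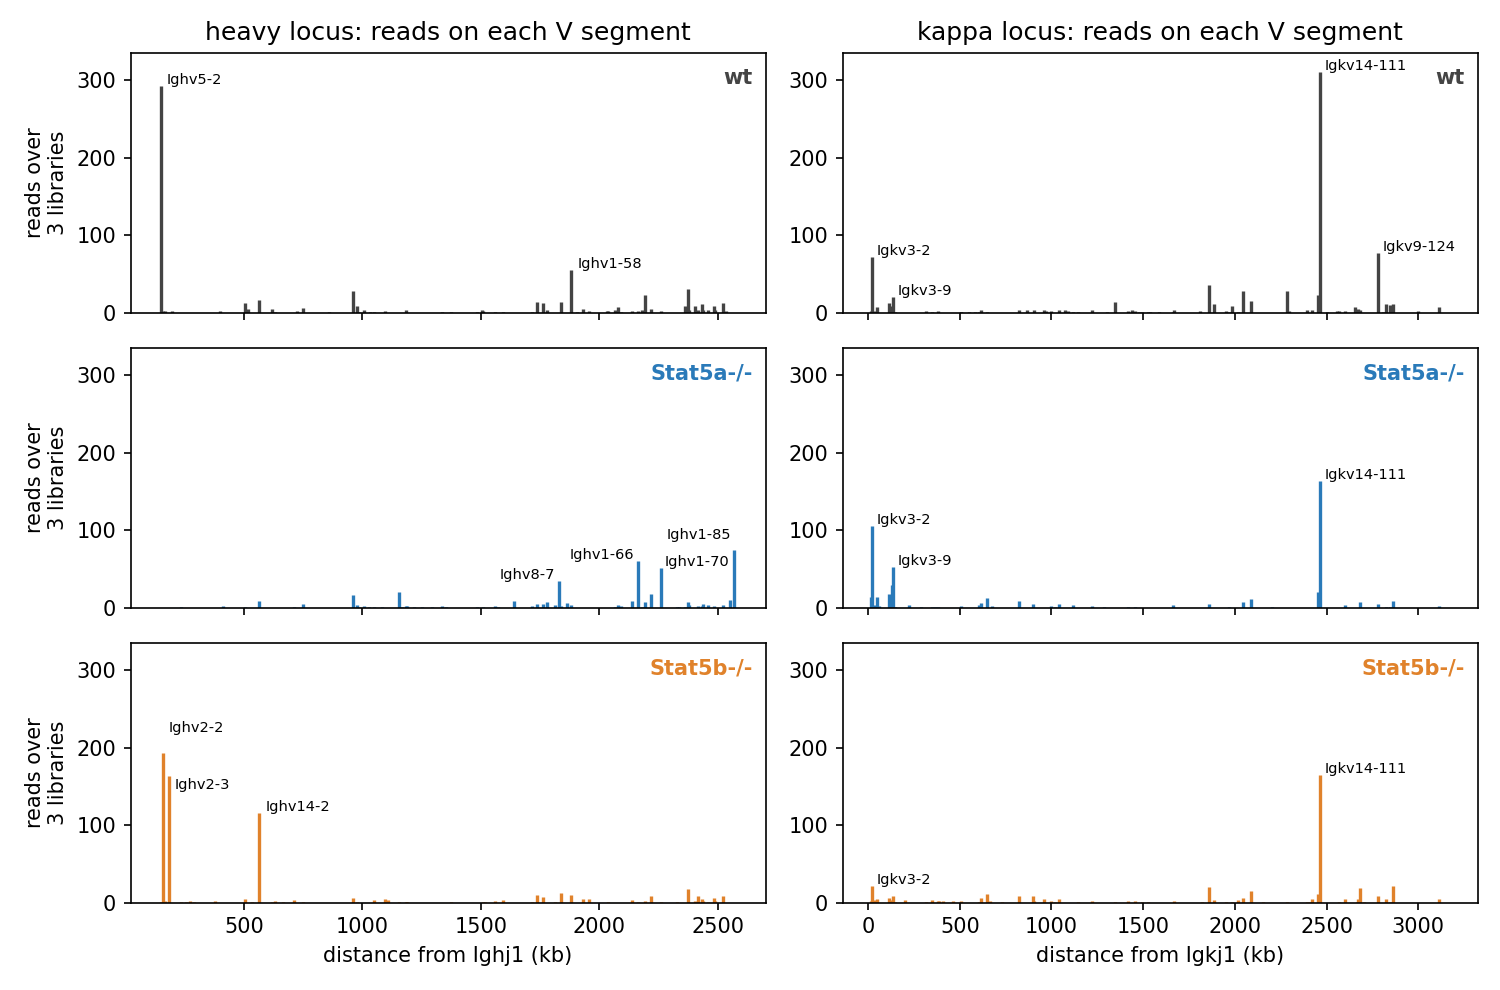
Reads summed over the 3 libraries of a line (vertical axis) on each V segment, placed by its distance in kb from Ighj1 (left column) or Igkj1 (right column). Each vertical line is 1 segment and the named segments with 20 or more reads are labelled. The tallest heavy-chain line, Ighv5-2 in wt, Ighv1-85 in Stat5a-/- and Ighv2-2 in Stat5b-/-, is J-proximal in wt and Stat5b-/- and J-distal in Stat5a-/-, and the next in wt, Ighv1-58, is J-distal. By contrast, Igkv14-111, far from Igkj1, is the tallest kappa line in every panel.

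The kappa locus differed from this picture in that the same segment led in all 3 lines. The summed reads on kappa V segments were 16.0 ± 2.0 CPM in wt, 13.5 ± 0.925 in Stat5a-/- and 10.4 ± 0.827 in Stat5b-/-, from 210, 331 and 279, 200, 190 and 151, and 139, 153 and 139 reads. Of 20 kappa segments with 10 or more reads over the 3 libraries of any line, 4 reached this number in all lines: Igkv14-111, Igkv3-2, Igkv1-110 and Igkv10-96.

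Igkv14-111 held 93, 120 and 97 reads in wt, 60, 55 and 48 in Stat5a-/- and 48, 56 and 60 in Stat5b-/-. This was 38.4 ± 5.12%, 30.2 ± 1.44% and 38.1 ± 4.51% of the kappa V reads. By normalized CPM, its level was 5.85 ± 0.232 in wt, 4.33 ± 0.14 in Stat5a-/- and 3.89 ± 0.641 in Stat5b-/-. Relative to wt, the log2 fold change of Stat5a-/- was -0.44 (SE 0.17, adjusted p = 0.0595 by edgeR) and that of Stat5b-/- -0.59 (SE 0.17, adjusted p = 0.0112), the latter below the fold limit of 2. Between the knockout lines it was -0.16 (SE 0.18, adjusted p = 0.531).

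Igkv9-124 (chr6:67942074-67942540) was used mainly in wt, with 17, 36 and 24 reads, against 2, 2 and 1 in Stat5a-/- and 2, 3 and 4 in Stat5b-/-. The wt libraries did not overlap those of either knockout line. It fell by a log2 fold change of -3.36 from wt to Stat5a-/- (SE 0.45, adjusted p = 5.75e-05 by edgeR) and of -2.71 from wt to Stat5b-/- (SE 0.4, adjusted p = 0.0001).

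Igkv3-2 and Igkv3-9, which lie close to the J segments, were higher in Stat5a-/- than in either other line. Igkv3-2 (chr6:70698449-70699067) held 46, 33 and 26 reads there, 16, 29 and 27 in wt and 7 in each Stat5b-/- library. The log2 fold change was 1.02 in Stat5a-/- against wt (SE 0.24, adjusted p = 0.00449 by edgeR), and their reads overlapped. It was 0.87, below the fold limit, without replicate 1 of either wt or Stat5a-/-. Against wt the change in Stat5b-/- was -1.43 (SE 0.32, adjusted p = 0.00236), and against Stat5a-/- it was -2.46 (SE 0.3, adjusted p = 3.45e-05).

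Igkv3-9 (chr6:70588189-70588777) held 16, 21 and 15 reads in Stat5a-/-, 3, 8 and 9 in wt and 5, 1 and 2 in Stat5b-/-. The log2 fold change was 1.85 in Stat5a-/- against wt (SE 0.41, adjusted p = 0.00291 by edgeR), and the lowest Stat5a-/- library lay above the highest of wt. Stat5b-/- against wt gave -0.97 (SE 0.59, adjusted p = 0.204), and against Stat5a-/- -2.82 (SE 0.49, adjusted p = 0.000696). Without replicate 1 of Stat5b-/- these were -1.75, which did not pass, and -3.58, which did. Among segments that did not pass the filter, the pseudogene Igkv3-8 had 12, 10 and 7 reads in Stat5a-/-, 1, 3 and 4 in wt and 1 in each Stat5b-/- library. The whole Igkv3 family took 44.5% of the kappa V reads in Stat5a-/-, 15.2% in wt and 11.8% in Stat5b-/-.

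By position, the J-proximal zone of the kappa locus (54 segments, from 18.4 to 1073 kb) held 54.0 ± 2.63% of the kappa V reads in Stat5a-/-, 19.8 ± 3.55% in wt and 26.7 ± 4.02% in Stat5b-/-. The J-distal zone held 42.6 ± 1.07%, 67.8 ± 4.9% and 64.6 ± 6.34%. Without Igkv14-111, the proximal share was 77.5% in Stat5a-/-, 32.2% in wt and 43.1% in Stat5b-/-. In Stat5a-/- the reads thus lay mostly J-distal at the heavy locus and mostly J-proximal at the kappa locus. The effective number of kappa segments was 5.98 ± 1.14 in wt, 6.96 ± 0.486 in Stat5a-/- and 6.5 ± 1.28 in Stat5b-/-, and the libraries of the 3 lines overlapped. Counting only segments with 10 or more reads in the library, it was 2.0 to 3.15 in wt and 2.51 to 3.1 in Stat5a-/-. It was then 1.0 in every Stat5b-/- library, below both other lines, since only Igkv14-111 reached 10 reads there. Both orientations of the locus were used, with 75 plus-strand segments holding 595, 454 and 310 reads and 85 minus-strand segments holding 225, 87 and 121 in wt, Stat5a-/- and Stat5b-/-.

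The lambda locus was barely read. Iglv3 (chr16:19241207-19241690) had 5, 6 and 5 reads in wt, 4, 3 and 2 in Stat5a-/- and 4, 2 and 6 in Stat5b-/-. Iglv1 had 0, 4 and 2, 2, 0 and 2, and 0, 0 and 4 reads, and Iglv2 a single read in wt. The sum was 0.442 ± 0.127 CPM in wt, 0.322 ± 0.0876 in Stat5a-/- and 0.403 ± 0.349 in Stat5b-/-. No lambda V segment passed the filter, so that none was tested for a difference between the lines. Of the lambda constant regions, Iglc3 held 5, 7 and 10 reads in wt, 19, 12 and 8 in Stat5a-/- and 20, 11 and 29 in Stat5b-/-. The reads of Iglc1 and Iglc2 overlapped between the lines.

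Over the whole family, 13 of the 348 segments passed the filter on low counts, 9 heavy-chain and 4 kappa, and these held 58.4% of all V reads. A segment used in only 1 line passes this filter through that line alone, so the shares called below are not a property of all V segments. The calls of the single segments did not depend on this filter: in a fit without it, which tested all 184 V segments with a read, each of the 9, 7 and 9 calls below was made again. In Stat5a-/- against wt, 9 of the 13 passed an adjusted p of 0.05 and a fold change of 2, whereas 14.2% of all tested genes did. Of these, 6 were higher (Ighv1-85, Ighv1-66, Ighv1-70, Ighv8-7, Igkv3-2 and Igkv3-9; 7.75% of all genes were higher) and 3 were lower (Ighv5-2, Ighv1-58 and Igkv9-124; 6.49% were lower). The reads did not overlap between the lines for 8 of the 9, and 13.4% of all tested genes passed without overlap. The median log2 fold change was 0.0 over the 13 segments and 0.01 over all tested genes.

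In Stat5b-/- against wt, 7 of the 13 segments passed, beside 19.1% of all tested genes. Ighv2-2, Ighv2-3 and Ighv14-2 were higher, where 10.6% of all genes were, and Ighv5-2, Ighv1-58, Igkv9-124 and Igkv3-2 were lower, where 8.44% were. None of the 7 overlapped in reads, and 17.6% of all tested genes passed without overlap. The medians were -0.53 over the 13 segments and 0.023 over all genes. In Stat5b-/- against Stat5a-/-, 9 of the 13 passed, beside 11.4% of all tested genes. Ighv2-2, Ighv2-3 and Ighv14-2 were higher, where 4.81% of all genes were, and the 6 segments listed as higher in Stat5a-/- were lower, where 6.6% were. The medians were -0.16 and 0.02. The 3 comparisons share libraries and are not independent of each other.

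D and J segments of the heavy locus, to which V segments are joined, were described from the same tables. Their gene models are 10 to 100 bases long, most of them shorter than the 50-base reads, so that no level per length is given. Reads on the 20 D segments summed to 537, 576 and 391 in Stat5a-/-, 0, 5 and 2 in wt and 2, 3 and 0 in Stat5b-/-. Ighd2-8 led with 391, 419 and 280 reads in Stat5a-/-, 0, 3 and 0 in wt and 1, 2 and 0 in Stat5b-/-. Ighd3-2 held 100, 111 and 88, against 0, 0 and 1 in wt and 1, 1 and 0 in Stat5b-/-. Ighd2-7, Ighd2-8 and Ighd3-2 were the D segments that passed the filter on low counts, and they passed it through the Stat5a-/- libraries alone, so that their number is no result and their reads are given without a test. Stat5a-/- thus combined the most D reads with the lowest share of a leading V segment.

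Reads on J segments were described in the same way. In wt, Ighj4 held 31, 33 and 34 reads, Ighj2 0, 0 and 2, and Ighj1 and Ighj3 none. In Stat5a-/-, Ighj2 held 545, 468 and 403 reads, Ighj3 10, 9 and 15, and Ighj4 8, 9 and 4. In Stat5b-/-, Ighj2 held 66, 99 and 91 reads, Ighj3 15, 12 and 6, and Ighj4 7, 5 and 9. Ighj2 and Ighj3, at 0 to 2 reads in the wt libraries, passed the filter on low counts through the knockout libraries alone, and are likewise given without a test against wt. Ighj4, at 31 to 34 reads in the wt libraries and 4 to 9 in the knockout libraries, passed the filter through the wt libraries. Its reads are therefore also given without a test against wt. Ighj2 was lower in Stat5b-/- than in Stat5a-/- by -2.63 (SE 0.19, adjusted p = 2.75e-07). Ighj3 and Ighj4 did not pass the test between the knockout lines (adjusted p = 0.711 and 0.794). On the kappa J segments there were 5, 4 and 9 reads over the 3 libraries of wt, Stat5a-/- and Stat5b-/-.

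**Figure D4:**
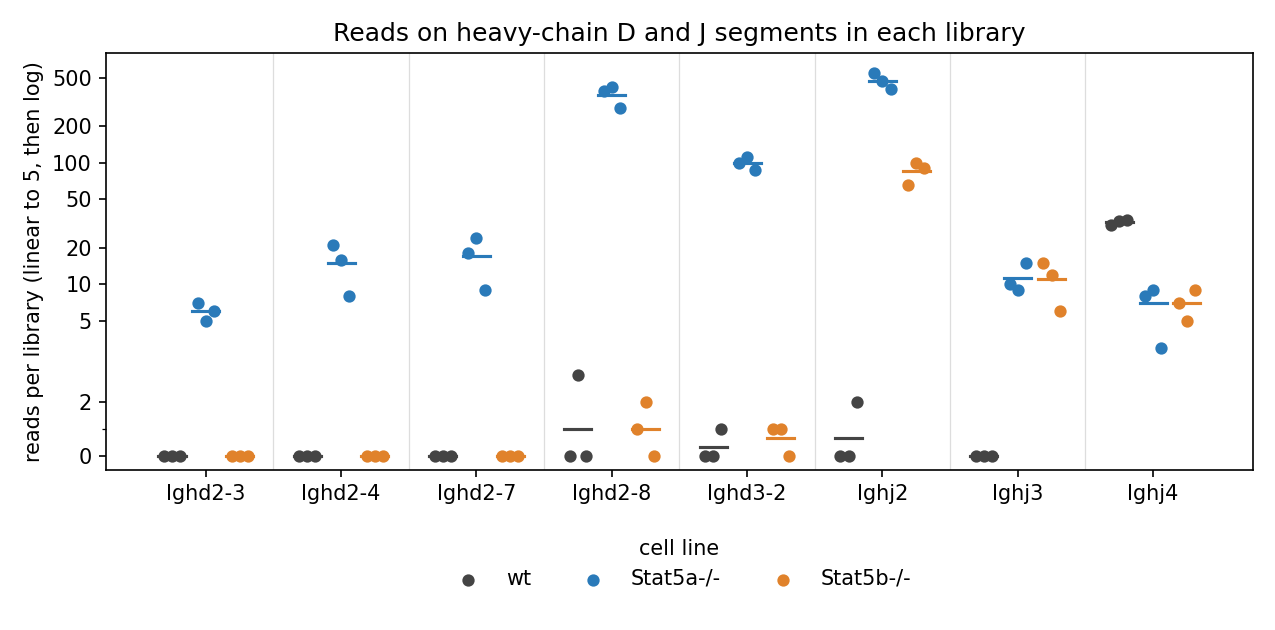
Reads on 8 heavy-chain D and J segments in each of the 9 libraries, with the vertical axis linear to 5 reads and logarithmic above. Points are libraries and horizontal bars the mean of 3. Ighd2-8 is at 280 to 419 reads in Stat5a-/- and at most 3 elsewhere, and Ighj4 is highest in wt.

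Heavy-chain V segments had few reads beside the constant region, whereas kappa V segments did not. As reads per kilobase of gene model scaled to library size (RPKM), the leading heavy-chain V segment was at 16.3 ± 2.53 in wt, 5.2 ± 1.44 in Stat5a-/- and 13.2 ± 0.617 in Stat5b-/-. Ighm, the constant region of IgM, was at 1060 ± 42.3, 2247 ± 134 and 799 ± 40.8. The leading V segment thus stood at 1.54 ± 0.245%, 0.232 ± 0.065% and 1.65 ± 0.0708% of Ighm. All heavy-chain V segments summed per kilobase stood at 3.52 ± 0.536%, 1.35 ± 0.168% and 5.5 ± 0.205%. For Ighm the log2 fold change was 1.23 in Stat5a-/- against wt (SE 0.1, adjusted p = 7.94e-07 by edgeR) and -0.38 in Stat5b-/- (SE 0.1, adjusted p = 0.00825), the latter below the fold limit. Igkv14-111 stood at 43.5 ± 4.65% of Igkc, the kappa constant region, in wt, 37.1 ± 5.6% in Stat5a-/- and 20.0 ± 2.8% in Stat5b-/-. All kappa V segments summed per kilobase stood at 114 ± 8.05%, 122 ± 12.6% and 52.6 ± 7.51% of Igkc.

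Genes that act in V(D)J recombination were taken as a list of 14. In Stat5a-/- against wt, 3 were lower and none was higher, where 14.2% of all tested genes passed in either direction. In Stat5b-/- against wt, 2 were lower and 2 higher, beside 19.1% of all genes. In Stat5b-/- against Stat5a-/-, 4 were higher, beside 11.4%. The recombinase genes Rag1 and Rag2 had 1002, 1328 and 1098 and 477, 744 and 512 reads in wt, at most 3 reads a library in Stat5a-/- and at most 16 in Stat5b-/-. Dntt encodes the enzyme that adds bases without a template at the joints. It had 475, 500 and 462 reads in wt, 135, 104 and 95 in Stat5a-/- and 825, 1005 and 1044 in Stat5b-/-. Rag1 was lower than in wt by log2 fold changes of -8.59 in Stat5a-/- (SE 0.22, adjusted p = 2.13e-11 by edgeR) and -6.59 in Stat5b-/- (SE 0.18, adjusted p = 3.67e-11). Of 9 genes of the surrogate light chain and the pre-B-cell receptor, none passed both limits in Stat5a-/- against wt, beside 14.2% of all genes. By adjusted p alone 8 of the 9 were higher and none lower, where 19.8% of all genes were higher, and their median log2 fold change was 0.61. In Stat5b-/- against wt Cd79a was higher and Vpreb2 lower, beside 19.1% of all genes. By adjusted p alone 5 were higher and 1 lower there, where 24.2% and 22.0% of all genes were, and the median was 0.5. Of 15 factors that act on immunoglobulin loci, Spib and Ikzf3 were higher in both knockout lines than in wt, Irf4 was higher in Stat5b-/- and Il7r was lower in Stat5a-/-. This is 3 of the 15 in each comparison with wt, beside the same 14.2% and 19.1% of all genes.

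Markers of other cell types were set beside the V reads. All 8 B-lineage markers had 10 or more reads in every library, and their sum was 3982 to 4249 normalized CPM in wt, 5381 to 6123 in Stat5a-/- and 4744 to 5607 in Stat5b-/-. The sum of 8 early B-cell markers was 1439 to 1477, 1558 to 1693 and 1417 to 1567. Of these 8, 7, 5 and 5 had 10 or more reads in each library of the line. They went different ways: mean normalized CPM was 608, 1011 and 917 for Igll1 and 374, 174 and 277 for Il7r. The sum of 6 mature B-cell markers was 21.5 to 25.9, 33.2 to 36.6 and 25.5 to 33.8, and its members went different ways. Cxcr5 had 29 to 49 reads a library in wt, 196 to 236 in Stat5a-/- and 70 to 86 in Stat5b-/-. Cr2 had 233 to 341, 111 to 199 and 175 to 181. The sum of 6 plasma-cell markers was 349 to 352, 400 to 460 and 368 to 393. Most of it came from Xbp1 and Tnfrsf13b, which went different ways. Xbp1 had 1620 to 2327 reads a library in wt, 2634 to 4247 in Stat5a-/- and 2458 to 2675 in Stat5b-/-. Tnfrsf13b had 3330 to 4030, 1711 to 2209 and 2370 to 2800, and Sdc1 573 to 589, 41 to 55 and 86 to 128. Jchain had 5 to 55 reads a library, and Tnfrsf17 had none in any library. All 15 T-cell markers had 10 or more reads in every library, with a sum of 820 to 1151 in wt, 1210 to 1456 in Stat5a-/- and 1761 to 2594 in Stat5b-/-. The sum of 8 myeloid markers was 3.98 to 6.2, 4.88 to 6.42 and 9.28 to 10.8, mostly Lyz2, and the defining markers Mpo and Elane had at most 2 reads a library. The globin gene Hbb-bt, an erythroid marker, had 199, 200 and 185 reads in the wt libraries, 188, 167 and 124 in Stat5a-/- and 23, 34 and 37 in Stat5b-/-. The other globin genes on the list, Hba-a1, Hba-a2 and Hbb-bs, had 0 to 7 reads in every library. Beside these, the mean heavy-chain V sums were 13.1, 10.6 and 15.5 CPM and the kappa V sums 16.0, 13.5 and 10.4 CPM in wt, Stat5a-/- and Stat5b-/-. The part of other cells in the V reads was not tested. In bulk samples, fewer cells that use a segment and less RNA per cell cannot be told apart.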

How the data were processed

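Poly(A) RNA of 9 libraries, 3 technical replicates of 1 cell line per genotype, was sequenced by the authors as 50-base single-end reads. The authors trimmed the reads with Trimmomatic, mapped them with STAR at default parameters to GENCODE M13 (GRCm38), and deposited raw read counts per gene from featureCounts 1.5.1, without normalization. Its command line sets no strand and no multi-mapping option. Library totals were 11948136 to 19016396 counted reads.

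Symbols, biotypes and sequences came from GENCODE M21, and 341 of the 348 V gene models had the same length there. Counts were tested with edgeR 4.0.16 (R 4.3.3), using the quasi-likelihood test on all 9 libraries with TMM and filterByExpr, and Benjamini-Hochberg adjustment over 13852 genes. Limits were an adjusted p of 0.05 and a fold change of 2. Normalized CPM use TMM. Sums over V segments, shares and effective numbers (the inverse of the unbiased Simpson index) were given without a test. Intervals of shares are 95% Wilson intervals, and those of ratios are exact counting intervals. For a line without a read, the floor was 3 reads over its 3 libraries.

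Named were up to 3 leading segments per locus and line with at least 10 reads in each library of that line, and all segments past both limits, which were 12. Ighv1-74, Ighv1-9, Ighv1-84, Igkv3-8 and the D and J segments shown singly were chosen after their values were seen. The members and lists were chosen with earlier results of these data known.

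Alternatives were DESeq2 1.42.0, RLE normalization, no filter, only both lines compared, the replicate number as a block, immunoglobulin genes left out of the scaling, adjusted p alone, each library left out, TMM-scaled sums, shares per kilobase, and effective numbers without segments under 10 reads. The fit was tested on simulated data.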

Additional observations from a re-analysis of the deposited data

How the results depend on the processing

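The V segments called were the same under RLE normalization, with only both lines in the fit, with immunoglobulin genes left out of the scaling and, in Stat5a-/- against wt and between the knockout lines, by adjusted p alone. With DESeq2, 15 segments passed in Stat5a-/- against wt and 11 in Stat5b-/- against wt, and without a filter on low counts 21, 15 and 14 passed in the 3 comparisons. Every segment called by edgeR was among them. DESeq2 gave no adjusted p for 294, 301 and 318 segments. With each library left out in turn, 8 to 10, 6 to 7 and 9 to 10 segments passed. The replicate numbers did not pair the samples: the mean correlation of deviations was -0.0877 over 9 pairs with the same number and 0.0438 over 18 others. Under a replicate block, 9, 7 and 9 segments passed, and none of the calls changed.

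Of 531 log2 fold changes of single segments under these alternatives, 527 kept their direction and their side of the limits. The exceptions were Igkv3-2 (0.87 without replicate 1 of wt or of Stat5a-/-), Ighv1-58 (-1.67 without replicate 1 of Stat5b-/-) and Ighv1-66 in Stat5b-/- against wt, which was 1.87 without replicate 2 of wt (range -2.45 to 1.87 over libraries left out) and rests on 2 against 1 reads. Per kilobase, the wt share of Ighv5-2 was 44.3%. Without segments under 10 reads in the library, the effective numbers were 1.77 (wt), 4.12 (Stat5a-/-) and 2.89 (Stat5b-/-) for the heavy chain and 2.66, 2.86 and 1.0 for kappa, by construction lower.

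Depth limits these values. Most V segments had under 10 reads over all libraries, and a ratio against a line with 1 to 3 reads is imprecise. Such reads lay in 1 library for Ighv5-2 and Ighv1-70 in Stat5b-/-, for Ighv1-58 in Stat5a-/- and for Ighv1-66 in wt and in Stat5b-/-. Without that library the fitted log2 fold changes moved from -7.44 to -9.36 (Ighv5-2, Stat5b-/- against wt) and from -3.56 to -7.0 (Ighv1-58, Stat5a-/- against wt). They moved from 5.12 to 7.5 (Ighv1-66, Stat5a-/- against wt), and from -5.64 to -7.57 and -5.4 to -7.32 (Ighv1-66 and Ighv1-70, Stat5b-/- against Stat5a-/-). Each still passed.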
